A study of Mus musculus with 217 samples.

Results

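The activity genes followed here through the day in 3 subregions of the mouse striatum are Egr1, Egr2, Egr3, Egr4, Nr4a1, Nr4a2, Nr4a3, Arc and Homer1. They were chosen by name, as the rows of these 9 symbols among the 12270 genes listed for at least 1 region. All 9 were listed among the 11867 genes of the nucleus accumbens (NAc) and the 11394 genes of the dorsolateral striatum (DLS). In the dorsomedial striatum (DMS), 8 of the 9 were listed among 12101 genes, and Nr4a2 was not analysed there. The animals were adult C57BL/6J mice of both sexes, about 10 weeks old, with no genetic change and no drug. Lights were on for 12 h and off for 12 h, food and water were freely available, and animals were killed at ZT14, ZT18 or ZT22 in the dark or at ZT2, ZT6 or ZT10 in the light, where ZT gives the hours since lights on. Both hemispheres were punched at a width of 1 mm in each region, so that a library holds the RNA of all cell types of the punch. Total RNA was sequenced from 77 NAc libraries (39 dark and 38 light), 70 DMS libraries (35 dark and 35 light) and 70 DLS libraries (36 dark and 34 light), with 11 to 14 libraries per region and time. The 217 libraries came from 93 animals, of which 47 gave 3 regions and 30 gave 2. Results of the 3 regions are therefore not independent of each other.

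These genes are immediate early genes or belong to the same response: synaptic input raises calcium and cAMP in a neuron, kinases activate the transcription factors CREB and SRF, and transcription starts within minutes without new protein being made. The Egr genes encode zinc finger transcription factors, and the Nr4a genes encode orphan nuclear receptors that act without a known hormone. Arc encodes a postsynaptic protein that promotes the removal of AMPA receptors from synapses. Homer1 encodes a scaffold that ties metabotropic glutamate receptors to calcium stores, and a short form of it that neuronal activity induces breaks this tie. In the striatum, dopamine and glutamate drive these genes in medium spiny neurons, the projection neurons that make up most of the tissue. Mice are active mainly in the dark. The genes lie on different chromosomes or far apart, in GRCm38 at chr10:67535475-67542188 (Egr2), chr14:70077203-70082614 (Egr3), chr6:85511121-85513589 (Egr4), chr15:101254269-101274795 (Nr4a1), chr2:57106830-57124003 (Nr4a2), chr4:48045153-48086447 (Nr4a3), chr15:74669083-74672570 (Arc) and chr13:93299635-93405129 (Homer1). The values are one number per gene, so the short and the long forms of Homer1 cannot be told apart, and in a bulk sample fewer active cells cannot be told apart from less RNA per cell.

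The promoter windows are shown because the induction pathway is known to act at cAMP response elements (CRE) and serum response elements. They do not mark the genes that moved together: Homer1 and Nr4a2 have a window but stood outside that group, described below. Egr1 and Arc belonged to that group, but no window was matched for them. RefSeq windows (GRCm38.p6) of 300 bases, from 250 bases before to 50 bases after a start of transcription, were matched for 6 of the 9 genes (11 windows, of which Egr2 has 5 and Homer1 has 2). One window each is printed on the strand of the gene, at chr15:101266596-101266895 (+) for Nr4a1, chr4:48045055-48045354 (+) for Nr4a3, chr2:57123954-57124253 (-) for Nr4a2, chr10:67537619-67537918 (+) for Egr2, chr6:85513540-85513839 (-) for Egr4 and chr13:93303507-93303806 (+) for Homer1. Capitals mark the CRE core TGACG read on either strand and, in Egr2, also the CArG box that SRF binds.
Nr4a1: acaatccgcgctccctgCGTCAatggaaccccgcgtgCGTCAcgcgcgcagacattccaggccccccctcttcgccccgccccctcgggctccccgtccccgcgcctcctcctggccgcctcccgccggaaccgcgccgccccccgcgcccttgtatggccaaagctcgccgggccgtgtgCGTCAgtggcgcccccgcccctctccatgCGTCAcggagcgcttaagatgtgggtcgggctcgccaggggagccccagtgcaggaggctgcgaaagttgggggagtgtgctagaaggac
Nr4a3: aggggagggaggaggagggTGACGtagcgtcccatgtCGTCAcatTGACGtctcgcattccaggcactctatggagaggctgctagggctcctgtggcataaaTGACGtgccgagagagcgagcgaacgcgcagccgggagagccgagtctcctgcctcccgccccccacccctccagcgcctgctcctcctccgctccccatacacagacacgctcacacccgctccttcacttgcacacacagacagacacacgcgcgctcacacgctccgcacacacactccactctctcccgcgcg
Nr4a2: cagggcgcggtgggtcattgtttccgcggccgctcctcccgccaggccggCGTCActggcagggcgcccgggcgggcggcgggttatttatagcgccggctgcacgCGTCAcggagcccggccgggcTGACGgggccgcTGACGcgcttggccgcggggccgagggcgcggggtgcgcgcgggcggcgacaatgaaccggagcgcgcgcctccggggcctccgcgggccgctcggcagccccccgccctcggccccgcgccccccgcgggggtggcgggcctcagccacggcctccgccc
Egr2: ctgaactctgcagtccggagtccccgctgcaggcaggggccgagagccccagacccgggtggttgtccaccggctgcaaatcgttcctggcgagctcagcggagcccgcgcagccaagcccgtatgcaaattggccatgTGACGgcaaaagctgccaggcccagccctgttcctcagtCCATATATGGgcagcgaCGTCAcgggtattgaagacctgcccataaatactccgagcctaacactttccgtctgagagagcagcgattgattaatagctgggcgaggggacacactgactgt
Egr4: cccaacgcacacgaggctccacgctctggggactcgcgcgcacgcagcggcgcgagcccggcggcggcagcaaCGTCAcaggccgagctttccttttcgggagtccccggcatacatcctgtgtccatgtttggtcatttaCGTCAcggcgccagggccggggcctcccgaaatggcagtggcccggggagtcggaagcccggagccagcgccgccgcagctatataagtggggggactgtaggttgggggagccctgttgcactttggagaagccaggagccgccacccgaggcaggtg
Homer1: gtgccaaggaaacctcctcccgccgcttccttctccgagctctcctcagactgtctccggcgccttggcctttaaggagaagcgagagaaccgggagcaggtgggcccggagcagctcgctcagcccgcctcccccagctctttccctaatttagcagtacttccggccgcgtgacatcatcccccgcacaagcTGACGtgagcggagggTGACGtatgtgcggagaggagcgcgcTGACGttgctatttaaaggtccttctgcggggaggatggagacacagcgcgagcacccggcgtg
Every printed window holds at least 2 CRE cores, but for Egr2 and Homer1 the window printed is one that holds such cores. Both genes also have a window, not printed, that holds none. A CRE core was found in 8 of the 11 windows (3 of them overlapping windows of Egr2), against 20.8% of 32851 windows of all genes. At least 2 CRE cores were found in the same 8 of 11 windows, against 5.01% of all windows. In Homer1 the CRE cores begin 56, 40 and 14 bases before the start, and in Nr4a1 they begin 233, 213, 69 and 40 bases before it. The full palindrome TGACGTCA was in none of the 11 windows and in 1.79% of all windows. A CArG box was in 4 of the 5 Egr2 windows, which overlap in part, and in 1.63% of all windows. The Egr binding site GCGGGGGCG was in the Nr4a1 window, where it overlaps an Sp1 site (GGGCGG), and in 2.91% of all windows. The Nr4a site AAAGGTCA was in none of the 11 windows and in 1.51% of all windows. These are matches of letters, searched on both strands, and no binding was measured.

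Values are given as log2 of normalised counts. Whole reads could be recovered from the DMS and DLS values, and summed to a median of 44189904 reads in DMS libraries and 42884872 in DLS libraries (35711640 to 57468484 and 29719087 to 56799764). In NAc whole reads could not be recovered, so that the depth of its libraries is unknown. The DMS libraries fell into 2 classes by the share of mitochondrial ribosomal RNA, with 35.3 to 52.6% in 33 libraries of the high class and 19 to 29.9% in 37 libraries of the low class. ZT18 had the most high-class libraries (10 of 12) and ZT22 the fewest (2 of 12), with 3 of 12 at ZT2, 4 of 12 at ZT6 and 7 of 11 at each of ZT10 and ZT14, so time and class overlap in part. The high class also held all 26 libraries of animals numbered 31 or above. A term for the class was therefore part of every DMS test, and values within the classes are given below. In DLS the library of the male number 13 stood apart: with libraries scaled to an equal sum outside the 3 most abundant genes, 114 genes had a 24 h rhythm with it and 2277 without it. All 12 markers of medium spiny neurons were listed in every region, with none at a median of 1 or less. Their summed log2 level had medians of 17.22 at ZT14 and 17.24 at ZT10 in NAc, of 17.90 at ZT14 and 18.01 at ZT10 in DMS, and of 17.76 at ZT14 and 17.80 at ZT10 in DLS. That of the listed cortical markers had medians of 13.95 at ZT14 and 13.87 at ZT10 in NAc, of 13.75 at ZT14 and 13.71 at ZT10 in DMS, and of 13.38 at ZT14 and 13.33 at ZT10 in DLS. Of the 12 neuron markers, 0 had a 24 h rhythm that passed the test in NAc (2.56% of all genes had one), 7 in DMS (25.2%) and 8 in DLS (21%). In the test of ZT14 against ZT10 described below, 0 passed in NAc. In DMS 0 were higher and 1, Rgs9, was lower (-0.28, adjusted p = 0.00872). In DLS 2 were higher, Tac1 (0.28, adjusted p = 0.00597) and Drd1 (0.18, adjusted p = 0.0436), and Rgs9 was lower (-0.29, adjusted p = 0.00443). These 3 genes are named because they are the ones that passed. No cortical marker passed that test in any region, and 0 of 8 were rhythmic in NAc, 1 of 6 in DMS and 1 of 8 in DLS.

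Per kilobase of exon, Egr1 had the highest median level of the 9 genes in all 3 regions and Nr4a2 the lowest where it was listed. In NAc the medians on the log2 scale per kilobase were 9.75 for Egr1, 9.53 for Homer1, 9.43 for Arc, 8.58 for Egr3, 8.20 for Nr4a1, 7.50 for Egr4, 6.85 for Nr4a3, 5.79 for Egr2 and 4.44 for Nr4a2. In DMS and DLS, Arc had a higher median than Homer1, and Egr2 than Nr4a3. These neighbours and Egr1 with Arc lie closer together than the SD over libraries of Arc (0.96 in DMS and 0.81 in DLS) or of Egr2 (1.11 and 1.04). The first 3 genes in NAc also lie closer together than the spread of Arc over libraries (SD 0.66, n = 77). This spread is not the error of a difference between medians, and the order of the medians was not tested in any region. The genes also differ in how far the libraries of a region spread. Homer1 varied little, with an SD of 0.27 in NAc, 0.27 in DMS and 0.24 in DLS. Egr3 varied as little, with an SD of 0.31 in NAc, 0.24 in DMS and 0.23 in DLS. Nr4a1 varied more, with an SD of 0.70 in NAc, 1.08 in DMS and 1.20 in DLS, and Nr4a2 varied most, with an SD of 2.28 in NAc and 1.84 in DLS. In reads, Nr4a2 reached a median of 93 per DLS library (1 to 1002), so its lowest values rest on few reads, against a median of 11821 reads (1589 to 18337) for Homer1.

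How the genes differ across lights off was tested by setting ZT14, in the early dark, against ZT10, in the late light. In DMS, 6 of 8 genes were higher at ZT14 than at ZT10 (3.55% of all genes were, and 3.11% were lower), and in DLS 7 of 9 were (3.3% of all genes, with 2.55% lower). Nr4a1, Nr4a3, Egr2 and Arc differed most, by about 1.3 to 1.8 on the log2 scale in both regions, followed by Egr4 and Egr1. Egr3 did not pass the test in any region. The tests were moderated contrasts in limma with Benjamini-Hochberg adjustment over all genes of a region.

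Nr4a1, the receptor also known as Nur77, had log2 values of 11.03 to 12.48 (median 11.58) in 11 DMS libraries at ZT14, against 8.29 to 11.38 (median 9.83) in 11 libraries at ZT10. Of the 11 libraries at ZT10, 9 lay below every library at ZT14. The fitted difference of 1.78 (SE 0.33, adjusted p = 0.000243) is a fold of 3.44, with a 95% confidence interval of 2.18 to 5.44. In DLS, Nr4a1 had values of 10.60 to 11.86 (median 11.07) in 12 libraries at ZT14 and 7.76 to 10.73 (median 9.82) in 11 libraries at ZT10. Of the 12 libraries at ZT14, 9 lay above every library at ZT10, and the fold was 3.32 (1.85 to 5.96, adjusted p = 0.00623).

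Arc had DLS values of 11.70 to 12.68 (median 12.19) at ZT14, against 10.12 to 11.85 (median 10.80) at ZT10. The groups overlapped by a single ZT10 library above the lowest values at ZT14. Its fold was 2.48 in DLS (1.67 to 3.70, adjusted p = 0.00219). In DMS, Arc had values of 11.89 to 14.01 (median 12.51) at ZT14 and 10.25 to 12.91 (median 11.28) at ZT10, a fold of 2.53 (1.80 to 3.56, adjusted p = 0.000236). The DMS groups overlapped more, since 3 libraries at ZT10 reached into the range of ZT14.

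Nr4a3, the third receptor of the family, had DMS values of 8.38 to 11.45 (median 10.70) at ZT14 and 7.17 to 10.60 (median 8.59) at ZT10, and DLS values of 8.46 to 10.64 (median 9.67) at ZT14 and 6.93 to 8.94 (median 8.16) at ZT10. Its folds were 2.77 in DMS (adjusted p = 0.00104) and 2.75 in DLS (adjusted p = 0.00134). The ranges overlapped in both regions. Egr2 had DLS values of 7.95 to 9.36 (median 8.51) at ZT14 and 4.83 to 8.48 (median 7.01) at ZT10, and all 12 libraries at ZT14 lay above the ZT10 median. Its folds were 3.07 in DLS (adjusted p = 0.00359) and 2.85 in DMS (adjusted p = 0.00187).

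Egr1, the most abundant gene of the set per kilobase, moved by less, but with little overlap in DLS. Its DLS values were 12.39 to 13.43 (median 13.25) at ZT14 and 11.81 to 12.73 (median 12.29) at ZT10, and 11 of the 12 libraries at ZT14 lay above every library at ZT10. The fold was 1.80 in DLS (adjusted p = 0.000534) and 1.65 in DMS (adjusted p = 0.00106). Egr4 had folds of 1.88 in DLS (adjusted p = 0.00464) and 1.86 in DMS (adjusted p = 0.000399). Homer1 was higher at ZT14 by only 0.21 on the log2 scale in DLS (adjusted p = 0.0184), a call that was lost without the female library number 25 at ZT14 (adjusted p = 0.0586), and its difference of 0.15 in DMS did not pass (adjusted p = 0.146). For Egr3 the difference was 0.03 in DLS and -0.01 in DMS, with an interval of -0.16 to 0.14 in DMS. Nr4a2 differed by -0.41 in DLS, with an interval of -1.90 to 1.08.

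**Figure D1:**
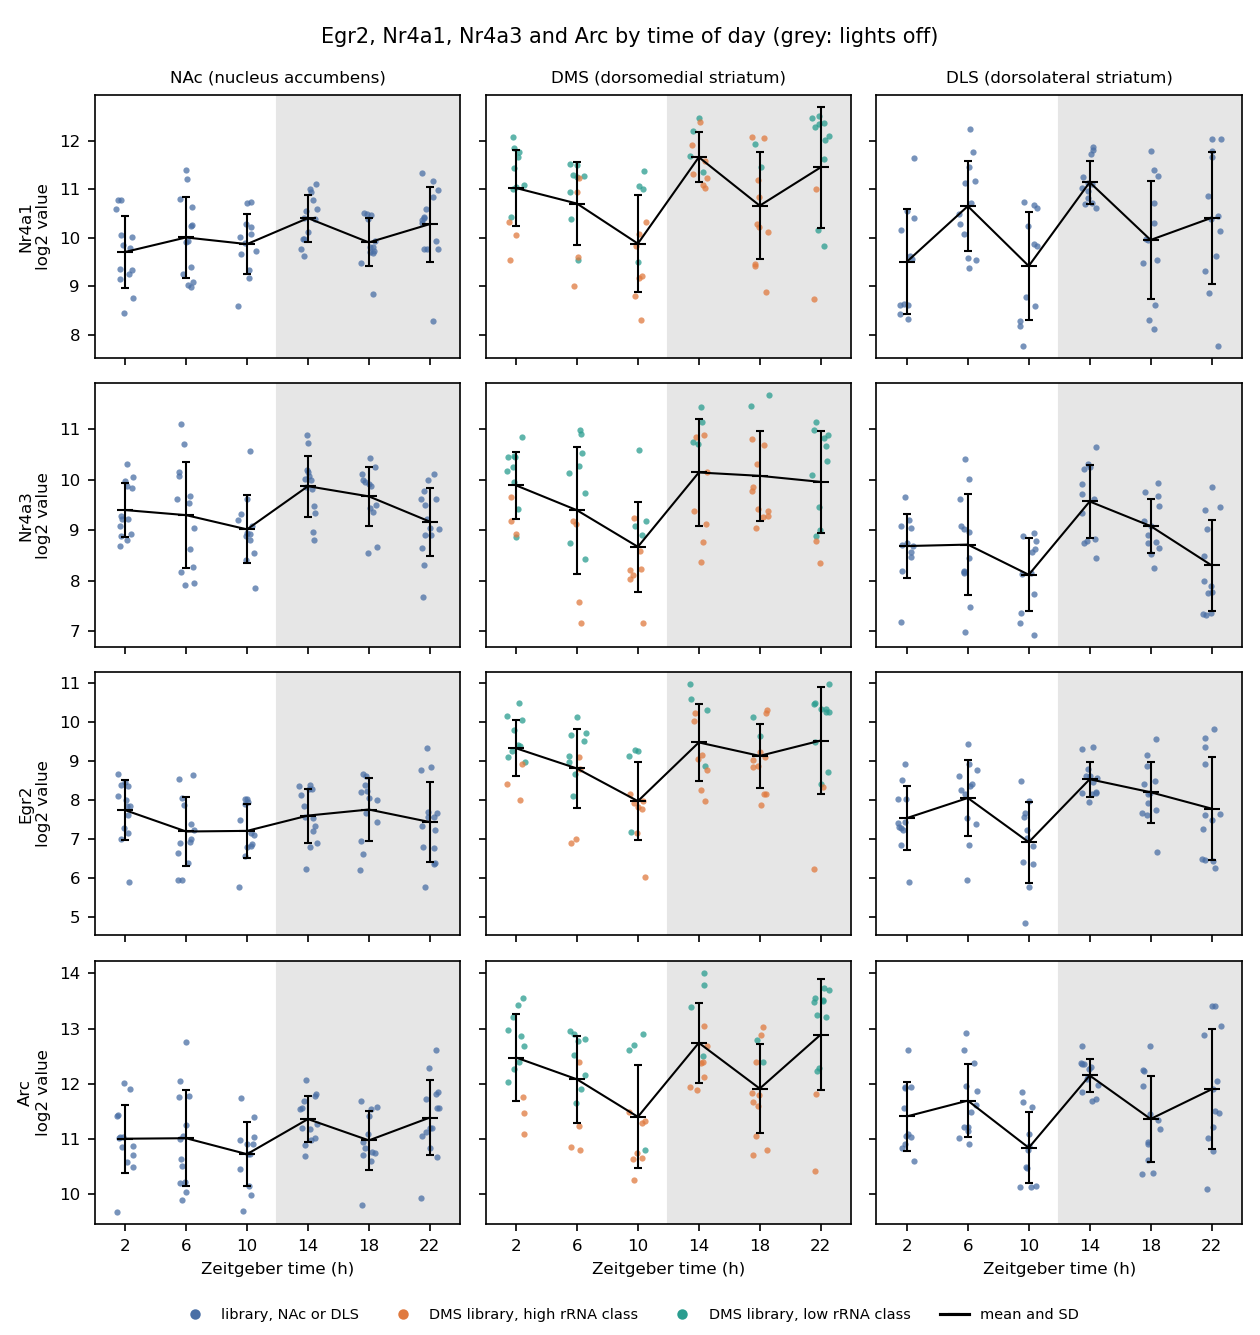
Log2 values of Nr4a1, Nr4a3, Egr2 and Arc (rows) by time of day in the 3 regions (columns). Each point is a library, lines join the means, bars are the SD, DMS libraries are coloured by rRNA class, and grey marks the dark; in DLS the ZT14 libraries of Arc sit between 11.70 and 12.68 with a spread much narrower than at ZT22.

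In NAc none of the 9 genes passed the test of ZT14 against ZT10 in limma (0.16% of all genes were higher and 0.0674% lower), although 6 of 9 reached an unadjusted p under 0.05, as did 8.46% of all genes. All 9 differences were positive, with a median of 0.5457 on the log2 scale against 0.0025 over all genes, and adjusted p-values ran from 0.166 to 0.993. Nr4a3 differed most in NAc, with values of 8.81 to 10.89 (median 10.00) in 13 libraries at ZT14 and 7.86 to 10.58 (median 8.94) in 12 libraries at ZT10. Its difference of 0.86 had an adjusted p of 0.212. Egr1 had NAc values of 11.57 to 12.99 (median 12.21) at ZT14 and 11.09 to 12.22 (median 11.55) at ZT10, and all 13 libraries at ZT14 lay above the ZT10 median.

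**Figure D2:**
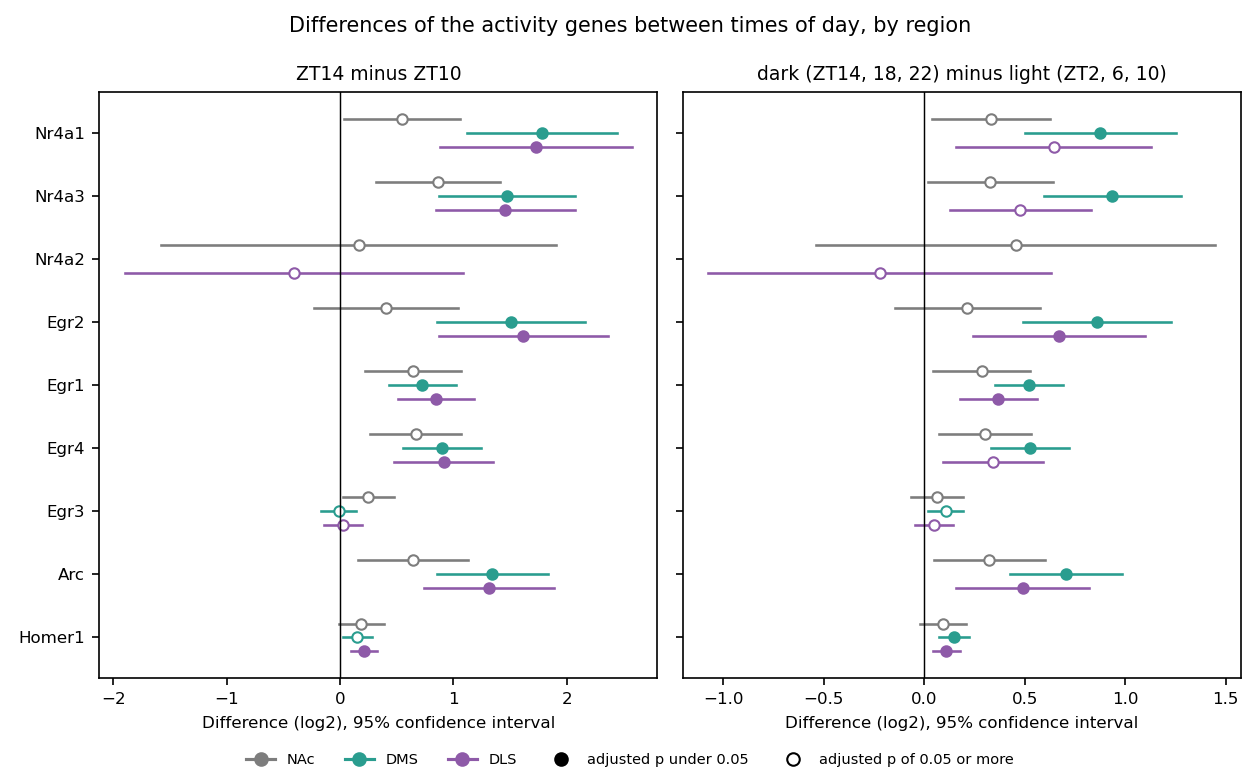
Differences on the log2 scale of ZT14 minus ZT10 (left) and of dark minus light (right) for each gene (rows) in NAc, DMS and DLS, with 95% confidence intervals; filled points passed the adjusted threshold. In ZT14 minus ZT10 the points of Egr3 lie near 0 in DMS and DLS, and those of Nr4a1, Nr4a3, Egr2 and Arc lie above 1.

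Whether the regions differ in this step was tested in a joint fit of the 11283 genes in all 3 tables. For the 8 genes in all 3 regions, no difference between regions passed the adjusted threshold (limma, 0 of 8 in each pair of regions). The step was larger in DMS than in NAc by 1.24 for Nr4a1 (0.26 to 2.21) and by 1.11 for Egr2 (0.13 to 2.08) on the log2 scale, the 2 genes with an unadjusted p under 0.05 in that pair. Between DLS and NAc the same 2 genes had differences of 1.18 for Nr4a1 and 1.21 for Egr2. DLS and DMS differed in the step by no more than 0.12 for any of the 8 genes, with no unadjusted p under 0.05, but the interval for Nr4a1 still ran from -1.05 to 0.95. This joint fit, like those of rhythm and of dark minus light below, treated punches of the same animal as separate. Their deviations were correlated, with an r of 0.59 to 0.70 for Nr4a1 and 0.47 to 0.65 for Egr2. An alternative with the animal as a block used 1 correlation for all genes, so the pairing of single genes is not in the intervals. A smaller step in NAc is therefore neither shown nor excluded.

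After ZT14 the genes parted. Arc and Nr4a1 had lower means at ZT18 than at ZT14 and ZT22 in all 3 regions, whereas Homer1 and Egr3 had their highest mean at ZT18 in all 3. The DMS means are not adjusted for class. Nr4a1 in DLS averaged 11.14 ± 0.44 at ZT14, 9.95 ± 1.21 at ZT18 and 10.41 ± 1.36 at ZT22 (SD, n = 12 each). Homer1 in DLS averaged 13.38 ± 0.18 at ZT14, 13.74 ± 0.09 at ZT18 and 13.50 ± 0.15 at ZT22 (SD, n = 12 each). The contrast of ZT18 with the mean of ZT14 and ZT22 was added after these means were seen. Homer1 was higher at ZT18 by 0.29 in DLS (SE 0.05, adjusted p = 9.2e-05, 0.843% of all genes higher and 0.579% lower) and by 0.25 in DMS (SE 0.06, adjusted p = 0.00244, 8.22% of all genes higher and 6.35% lower). Egr3 was higher by 0.36 in DMS (SE 0.07, adjusted p = 0.000146), and its difference of 0.22 in DLS had an adjusted p of 0.109. Arc differed by -0.66 in DLS (adjusted p = 0.189), -0.35 in DMS (adjusted p = 0.266) and -0.40 in NAc, and Nr4a1 by -0.82 in DLS, -0.41 in DMS and -0.44 in NAc. None of these passed, nor did any of the 9 genes in NAc, where no gene of the table passed and 1 of the 9 had an unadjusted p under 0.05 (limma). In DMS the difference of Arc passed when the class term was left out (-0.90, adjusted p = 0.0487) or replaced by the range of animal numbers (-0.64, adjusted p = 0.0215). Arc was lower by 1.27 in the high class, which held 10 of 12 libraries at ZT18, 7 of 11 at ZT14 and 2 of 12 at ZT22. Without the class term this difference thus mixes class with time. The higher range held only 26 of the 33 high-class libraries, so its term stands for the class only in part.

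The values of Homer1 at ZT18 and ZT10 are set side by side as a description, since these times were picked after the means were seen. In DLS its values were 13.60 to 13.94 (median 13.74) in 12 libraries at ZT18 and 13.01 to 13.50 (median 13.15) in 11 libraries at ZT10. In DMS they were 13.76 to 14.05 (median 13.89) in 12 libraries at ZT18 and 13.19 to 13.57 (median 13.28) in 11 libraries at ZT10. The ranges did not overlap in DLS and DMS, and how often the ranges of other genes separate between these times was not counted. The DMS values are not adjusted for class, and the high class, in which Homer1 was higher by 0.27, held 10 of 12 libraries at ZT18 and 7 of 11 at ZT10. In NAc the ranges overlapped, with 12.95 to 13.66 (median 13.25) at ZT18 and 12.47 to 13.45 (median 12.87) at ZT10.

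**Figure D3:**
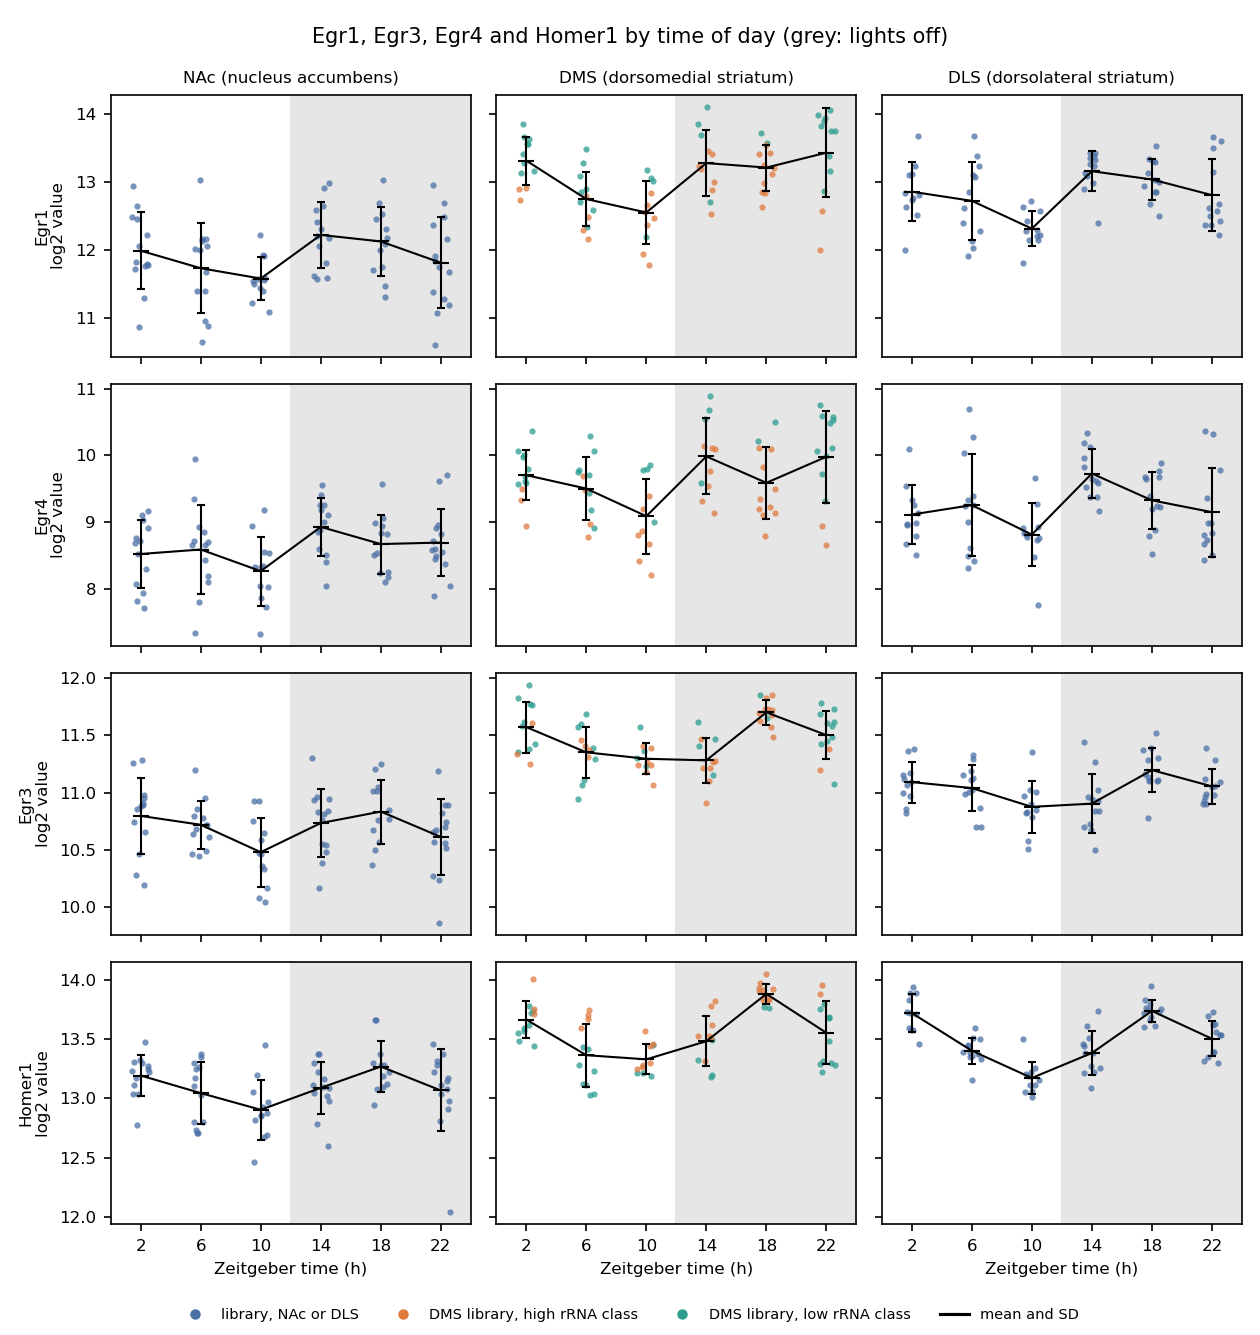
Log2 values of Egr1, Egr4, Egr3 and Homer1 (rows) by time of day in the 3 regions (columns), drawn as points per library with means and SD and grey for the dark. Egr3 and Homer1 have their highest mean at ZT18 in every region, and the 12 Homer1 libraries of DLS at ZT18 sit between 13.60 and 13.94, above all ZT10 libraries. These times were picked after the means were seen, and the DMS means are not adjusted for class.

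A cosine of 24 h passed the test for 8 of 8 genes in DMS (25.2% of all genes), for 3 of 9 in DLS (21% of all genes) and for 0 of 9 in NAc (2.56% of all genes, limma). In NAc 1 of 9 had an unadjusted p under 0.05, as did 15.1% of all genes. The DMS share of all genes was 51.3% without the class term, and 7 of 8 genes passed then, all but Nr4a1. With the range of animal numbers in place of the class, 7 of 8 passed, and 3772 of 12101 genes in all. The gene lost was Arc (amplitude 0.29, adjusted p = 0.0521). Amplitudes are given on the log2 scale, from the mean of the fitted curve to its peak, and folds run from trough to peak. In DMS, Nr4a3 had the largest amplitude at 0.68 (fold 2.56, peak at ZT17.8, adjusted p = 0.000344), followed by Egr2 at 0.59, Nr4a1 at 0.53 and Arc at 0.43, with peaks between ZT17.8 and ZT18.5. These are peaks of the fitted curve and not times of the highest measured values. Means in DMS, not adjusted for class, were 11.66 at ZT14, 10.66 at ZT18 and 11.45 at ZT22 for Nr4a1. For Arc they were 12.74, 11.91 and 12.89, and for both genes the departure from the cosine, given below, passed. The median amplitude of the 8 genes was 0.4175, against 0.0652 over all genes. Egr1 peaked at ZT19.1 with an amplitude of 0.40 (SE 0.06, adjusted p = 5.59e-06). The fitted peaks of Homer1 and Egr3 were later, at ZT21.7 (amplitude 0.23, SE 0.03, adjusted p = 1.61e-08) and ZT21.2 (amplitude 0.17, SE 0.03, adjusted p = 0.000514). Their highest DMS means, not adjusted for class, were at ZT18, with 13.88 for Homer1 and 11.70 for Egr3. At ZT22 these means were 13.55 and 11.50, and for both genes the departure from the cosine also passed.

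In DLS the genes that passed were Homer1 (amplitude 0.22, SE 0.03, peak at ZT21.9, adjusted p = 4.55e-07), Egr1 (0.24, SE 0.07, peak at ZT18.7, adjusted p = 0.0408) and Egr3 (0.12, SE 0.04, peak at ZT22.3, adjusted p = 0.0358). The Egr1 call was kept in 49 of 70 fits that each left out 1 library (adjusted p 0.0126 to 0.0704), and the Egr3 call in 66 of 70 (0.0144 to 0.0731). Without the male number 13 library, Egr1 had an adjusted p of 0.066. In NAc, Homer1 had an amplitude of 0.11 (SE 0.04, adjusted p = 0.316), and it passed in the single fit without the female library number 2 at ZT22 (0.14, adjusted p = 0.0448). Differences of rhythm between regions did not pass for any of the 8 genes (limma), nor for other genes, except 0.292% of them in DLS against NAc. In DMS against NAc, 2 of 8 (Nr4a3 and Homer1) had an unadjusted p under 0.05, and 0 of 8 in the other pairs. The share of all genes with such a p was not counted for the region differences.

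A cosine of 24 h describes a curve with 1 peak and 1 trough, so time was also tested as 6 free levels. In that test, all 8 genes passed in DMS (32.4% of all genes) and 8 of 9 in DLS (21.1% of all genes), all but Nr4a2. Egr4 in DLS was lost without the male number 23 at ZT14 or the male number 38 at ZT10 (adjusted p of up to 0.0511). In NAc 0 of 9 passed (1.54% of all genes, limma). There 5 of 9 had an unadjusted p under 0.05, as did 10.8% of all genes. The remaining departure from the cosine passed for Egr3, Nr4a1, Nr4a3, Arc and Homer1 in DMS (5 of 8, against 6.98% of all genes) and for Egr1, Nr4a1, Nr4a3, Arc and Homer1 in DLS (5 of 9, against 2.78% of all genes). It passed for 0 of 9 in NAc (0.0506% of all genes, limma). There 4 of 9 had an unadjusted p under 0.05, and the share of all genes with such a p was not counted. In DMS without the class term it passed only for Homer1. In DLS, Arc averaged 11.41 ± 0.63 at ZT2 (SD, n = 11), 11.69 ± 0.66 at ZT6 (SD, n = 12), 10.84 ± 0.64 at ZT10 (SD, n = 11), 12.15 ± 0.30 at ZT14, 11.36 ± 0.77 at ZT18 and 11.90 ± 1.09 at ZT22 (SD, n = 12 each). Its adjusted p was 0.498 for the cosine and 0.00497 for the 6 levels.

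Averaged over the dark and the light, 7 of 8 genes were higher in the dark in DMS (7.92% of all genes, with 6.71% lower), all but Egr3 (0.11, adjusted p = 0.0838). Nr4a3 was higher in the dark by 0.94 (SE 0.17), Nr4a1 by 0.88 (SE 0.19), Egr2 by 0.86 (SE 0.19) and Arc by 0.71 (SE 0.14). In DLS 4 of 9 were higher in the dark (4.67% of all genes, with 3.85% lower), with Egr2 at 0.67 (adjusted p = 0.0369), Arc at 0.49 (adjusted p = 0.0496), Egr1 at 0.37 (adjusted p = 0.00766) and Homer1 at 0.11 (adjusted p = 0.0273). The Arc call in DLS was fragile: it was kept in 25 of 70 fits that each left out 1 library and was lost with the replicate block (adjusted p = 0.0617) and without the male number 13 library (adjusted p = 0.0684). That of Egr2 was kept in 59 of 70. Leaving out 1 library could also add a call: Egr3 in DMS passed without the female number 43 at ZT14 or the male number 5 at ZT22, and in DLS Nr4a1 passed without 2 libraries in turn, Nr4a3 without 2 and Egr4 without 3. Without the class term, Egr2 (adjusted p = 0.0561) and Arc (adjusted p = 0.0775) did not pass in DMS. In NAc 0 of 9 passed (0.725% of all genes higher and 0.556% lower, limma). There 5 of 9 had an unadjusted p under 0.05, as did 13% of all genes. No difference between regions in dark minus light passed for any of the 8 shared genes (limma, with 2 of 8 at an unadjusted p under 0.05 in DMS against NAc and 0 of 8 in the other pairs). For Egr2 it was 0.65 in DMS minus NAc (0.09 to 1.20). Across lights on, none of the genes passed the test of ZT2 against ZT22 in any region (limma, with 1 of 9 in NAc, 0 of 8 in DMS and 2 of 9 in DLS at an unadjusted p under 0.05). Of all genes, 0 passed in NAc, 0.00826% in DMS were higher at ZT2 and 0.00826% lower, and 0.0439% in DLS were higher and 0.0527% lower.

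Within the rRNA classes of DMS the step across lights off kept its direction for the 6 genes that passed. In the 33 high-class libraries alone, 7 of 8 genes were higher at ZT14 (4.14% of all genes differed), with Nr4a1 at 2.12, Egr2 at 1.53, Arc at 1.44, Nr4a3 at 1.42, Egr4 at 0.94, Egr1 at 0.73 and Homer1 at 0.22. In the 37 low-class libraries alone 0 of 8 passed (limma, with 6 of 8 at an unadjusted p under 0.05), nor did any other gene, and the differences were 1.56 for Nr4a3, 1.48 for Egr2, 1.19 for Nr4a1, 1.17 for Arc, 0.82 for Egr4 and 0.72 for Egr1. Dark minus light passed for 1 of 8 genes in the high class (Homer1, with 2.85% of all genes) and for 3 of 8 in the low class (Egr1, Egr4 and Nr4a3, with 1.56% of all genes). In the high class Egr4 was at 0.22, Egr2 at 0.43 and Egr1 at 0.29, against 0.53, 0.86 and 0.52 in all DMS libraries. The classes also differed in level. All 8 genes passed, as did 78.5% of all genes, and 7 of them were lower in the high class while Homer1 was higher. Nr4a3 differed by -1.41 (SE 0.19), Egr2 by -1.32 (SE 0.21), Arc by -1.27 (SE 0.16), Nr4a1 by -1.12 (SE 0.21) and Homer1 by 0.27 (SE 0.04).

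No gene of the set passed the test of males against females in any region (limma, 0 of 9 in NAc, 0 of 8 in DMS and 0 of 9 in DLS, and none at an unadjusted p under 0.05). Of all genes, 0.00843% were higher and 0.0674% lower in males in NAc, 2.23% and 1.98% in DMS, and 0.0527% and 0.149% in DLS. The rhythm of none passed a test of the sexes against each other, with 0 of 9 in NAc, 1 of 8 in DMS and 1 of 9 in DLS at an unadjusted p under 0.05. For this test the share of all genes with such a p was not counted. The DMS gene was Homer1, with an amplitude of 0.14 in males and 0.34 in females (adjusted p = 0.396). The DLS gene was Nr4a2, with 0.62 in males and 1.05 in females (adjusted p = 0.374).

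The fitted step across lights off was larger in males than in females for 8 of 8 genes in DMS, 8 of 9 in NAc and 7 of 9 in DLS, but no difference passed. The share of all genes with a larger step in males was not counted. Most genes of the set varied together over libraries, as given below, so their directions are not separate observations. In DMS the step of Nr4a3 was 2.37 in males and 0.40 in females, a difference of 1.97 (0.83 to 3.11, adjusted p = 0.133). That of Egr2 was 2.40 in males and 0.44 in females, a difference of 1.97 (0.75 to 3.19, adjusted p = 0.153). In DMS 0 of 8 genes passed this test (limma, 0.0661% of all genes), and 6 of 8 had an unadjusted p under 0.05, as did 14.7% of all genes. In NAc, Nr4a1 had a step of 1.16 in males and -0.12 in females, and Egr2 of 1.04 in males and -0.33 in females, with an adjusted p of 0.624 for each difference. In NAc 0 of 9 genes passed (limma, 0% of all genes), and 3 of 9 had an unadjusted p under 0.05, as did 7.53% of all genes. In DLS, Egr2 had a step of 2.14 in males and 1.13 in females, and 0 of 9 genes passed or had an unadjusted p under 0.05 (limma, 0% of all genes passed and 4.18% had such a p). The test was added after the values by sex were seen, and a time and region held 5 to 7 libraries of a sex at ZT14 and ZT10. In DMS at ZT14, most females but few males came from the higher range of animal numbers, which lay wholly in the high class. At ZT10 most females and some males came from it. High minus low class was -1.41 for Nr4a3 and -1.32 for Egr2. Sex at ZT14 thus overlaps with class and range in DMS. The fit held a class term, but a term for the range was not tested for this difference.

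A group of 6 genes varied together from library to library at a given time. After removal of time, sex and, in DMS, class, the 15 pairs of Egr1, Egr2, Egr4, Nr4a1, Nr4a3 and Arc had a median Pearson r of 0.71 in 77 NAc libraries (0.60 to 0.89), 0.78 in 70 DMS libraries (0.51 to 0.89) and 0.78 in 70 DLS libraries (0.63 to 0.93). These 6 were set apart after the values were seen. The closest pair in NAc and DLS was Arc with Nr4a1, at 0.89 and 0.93. For other genes the median r with these 6 was -0.01 in NAc, -0.01 in DMS and -0.00 in DLS. Homer1 stood outside this group, with a median r of -0.04 in NAc, 0.14 in DMS and 0.08 in DLS, and Nr4a2 did too, with 0.18 in NAc and 0.19 in DLS. Egr3 was weakly tied to the 6 in NAc and DMS (0.29 and 0.42) and had 0.04 in DLS, but Egr3 and Homer1 had an r with each other of 0.47 in NAc, 0.56 in DMS and 0.40 in DLS. Libraries share depth and punch composition, and these correlations are descriptions.

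**Figure D4:**
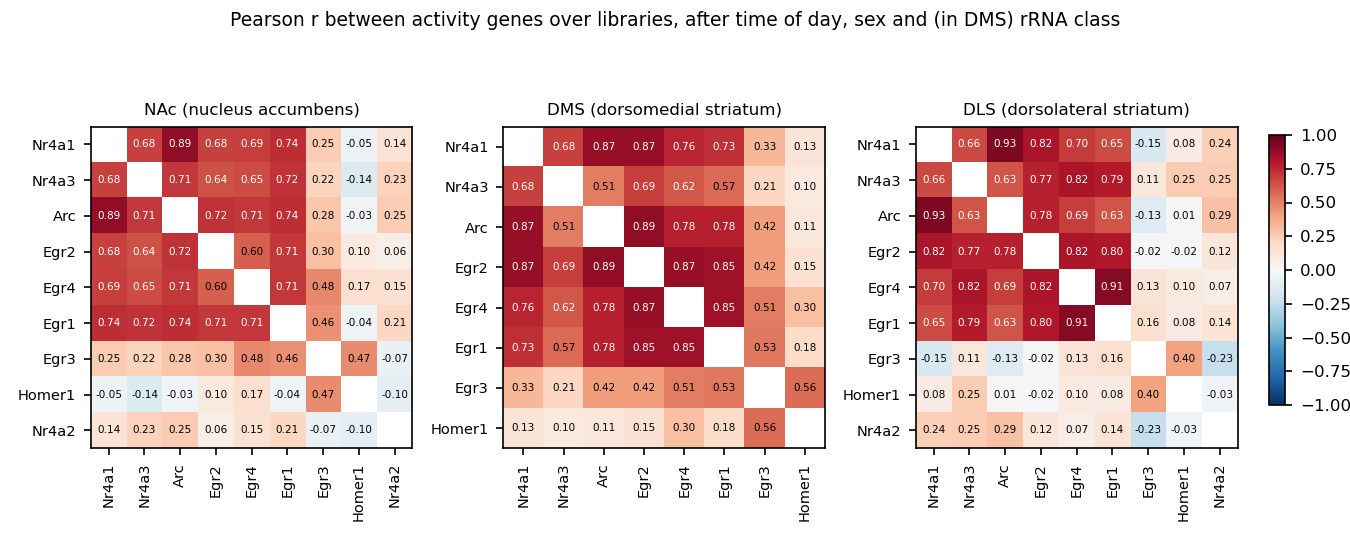
Pearson r between pairs of genes over the libraries of NAc, DMS and DLS, after removal of time of day, sex and the DMS class; red is positive and blue negative. The first 6 rows form a red block with r from 0.51 to 0.93, and Egr3, Homer1 and Nr4a2 lie outside it.

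The deviation of a gene from its time and sex mean was also shared between punches of the same animal. Nr4a1 had an r of 0.59 between DMS and NAc (63 animals), 0.60 between DLS and NAc (57 animals) and 0.70 between DLS and DMS (51 animals). Nr4a3 had 0.61, 0.56 and 0.54 and Arc had 0.50, 0.52 and 0.62 for these pairs of regions in that order. The median over all genes was 0.05, -0.02 and 0.13. Egr3 was the lowest of the 8 genes in each pair, at -0.01, -0.11 and 0.41. For the mean of the standardised values of the genes, r was 0.36, 0.42 and 0.56, and it was positive in both ranges of animal numbers in each pair (0.27 to 0.77). The punches of an animal were taken at the same death, so handling and time of death are shared as well, and their part was not tested.

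Nr4a2 marks dopamine neurons and, in the forebrain, subsets of cortical and claustral neurons. It varied widely at every time, from -0.01 to 10.45 on the log2 scale in NAc and from 1.21 to 10.15 in DLS, and passed no test of time. It moved with the summed level of 8 markers of cortical excitatory neurons, both taken after removal of time and sex. Pearson's r was 0.80 and Spearman's rho 0.86 in 77 NAc libraries, and r was 0.76 and rho 0.81 in 70 DLS libraries. Each had a permutation p of 1e-05, the smallest that 100000 resamples can give, and an adjusted p of 5e-05 over 10 relations. Without the 2 libraries farthest from the median marker sum, r was 0.79 in NAc and 0.77 in DLS. It was 0.79 and 0.82 in NAc, and 0.76 and 0.75 in DLS, in animals numbered below 31 and from 31. Of the 12 cortical markers on the list, 8 were listed in NAc and DLS, 6 in DMS, and Neurod1, Neurod2, Neurod6 and Rtn4rl2 in none of the 3. Their summed log2 level spanned 12.92 to 14.71 in dark and 12.96 to 15.24 in light NAc libraries. With 10 oligodendrocyte markers the r of Nr4a2 was 0.13 in NAc and 0.09 in DLS, and the ranges of animal numbers differed, with -0.08 below 31 and 0.41 from 31 in NAc, and -0.15 and 0.33 in DLS. The mean of the standardised values of the other genes of the set, without Nr4a2, had an r with the cortical sum of 0.13 in NAc, -0.10 in DMS and -0.11 in DLS.

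**Figure D5:**
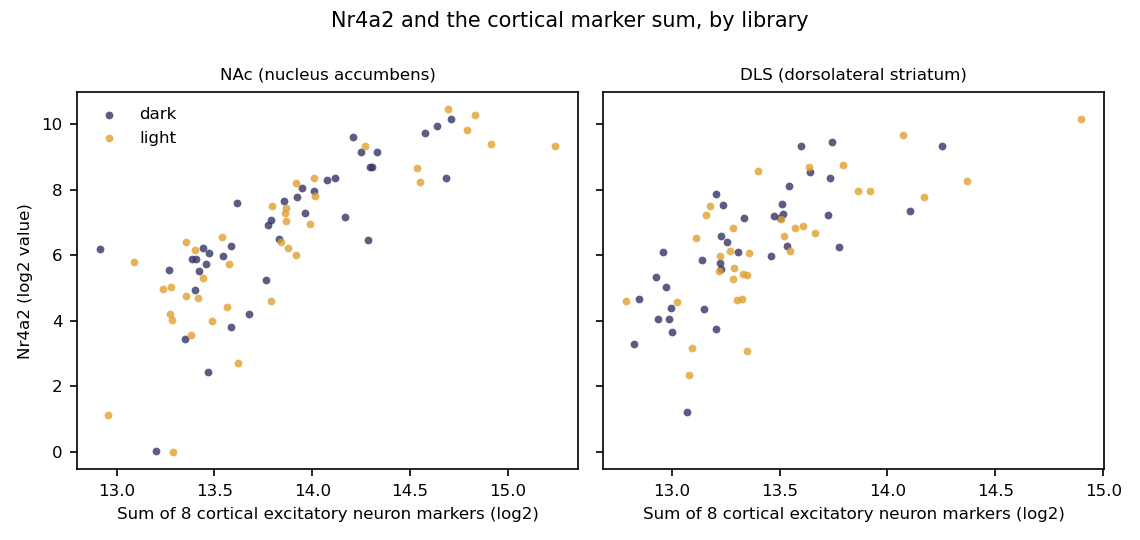
Nr4a2 on the log2 scale (vertical axis) against the log2 of the summed values of 8 cortical excitatory neuron markers (horizontal axis) for each library of NAc and DLS, in dark and light colours. Libraries with a higher marker sum have more Nr4a2 in both regions (r = 0.80 in NAc and 0.76 in DLS after removal of time of day and sex).

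Among 11275 other genes in all 3 tables, those whose values over libraries were most like the mean of the set were Fosl2 (mean r over the 3 regions 0.83), Dusp14 (0.78), Dusp6 (0.78), Midn (0.74), Dnajb5 (0.71), Rgs2 (0.70), Fosb (0.68), Junb (0.68), Phlda1 (0.68) and Irf2bpl (0.67), against a median of -0.01. Time of day was not removed, so a step and a rhythm like those of the set are partly built into this choice, and the values of these genes are a description. Fosl2, Fosb and Junb encode parts of the AP-1 transcription factor, Dusp6 a phosphatase that switches off the kinase ERK, and Rgs2 a brake on G protein signalling. Fosl2 was higher at ZT14 than at ZT10 by 1.32 in DMS, 1.04 in DLS and 0.55 in NAc. For Dusp6 the difference was 0.77 in DMS and 0.71 in DLS.

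Of 40 other activity genes on a list, 33 were listed in NAc, 33 in DMS and 31 in DLS, and 3, 22 and 10 of them were rhythmic (2.56%, 25.2% and 21% of all genes in these regions). In DMS 15 of 33 were higher at ZT14 than at ZT10 and in DLS 9 of 31 (3.55% and 3.3% of all genes), with none lower, and in NAc none of 33 passed. Their median step was 0.33 in DMS, 0.28 in DLS and 0.07 in NAc, against medians of 0.0025 in NAc, -0.0046 in DMS and -0.0033 in DLS over all genes. The order of peaks was not uniform: Csrnp1 peaked at ZT10.8 in DMS and DLS and ZT11.5 in NAc, and the clock gene Per1 at ZT14.5 in DMS and ZT12.9 in DLS. Inhba, which encodes activin A, peaked at ZT23.9 in DMS and ZT0.13 in DLS. Fos, named here after its values were seen, had steps of 1.09 in DMS (SE 0.39, adjusted p = 0.0781) and 1.19 in DLS (SE 0.49, adjusted p = 0.149) that did not pass.

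Genes that induce, partner or restrain the set were counted in the same tests. Of 25 listed genes of the induction pathway, 0 were rhythmic in NAc (2.56% of all genes), 9 in DMS (25.2%) and 9 in DLS (21%). Their median amplitudes were 0.06 in NAc, 0.05 in DMS and 0.06 in DLS, against 0.0749, 0.0652 and 0.0666 over all genes of these regions. At ZT14 against ZT10, 1 of the 25 was higher and 1 lower in DMS (3.55% and 3.11% of all genes). In DLS 3 were higher and 1 lower (3.3% and 2.55%), and in NAc 0 passed. Their median step was 0.08 in NAc, 0.01 in DMS and -0.02 in DLS. Srf, the factor that binds the CArG box, was higher at ZT14 than at ZT10 by 0.35 in DMS (SE 0.06, adjusted p = 3.53e-05) and 0.36 in DLS (SE 0.08, adjusted p = 0.00372). Elk1, its partner at that site, was lower, with differences of -0.24 in DMS (adjusted p = 0.0056) and -0.36 in DLS (adjusted p = 0.000133). Of 9 listed cofactors, 0 were rhythmic in NAc, 2 in DMS and 1 in DLS. Nab2, which represses Egr proteins, was higher at ZT14 by 0.29 in DMS (adjusted p = 0.0192), with 0.24 in DLS (adjusted p = 0.0663). Rxrg, a receptor that pairs with Nr4a1, was rhythmic in DLS (amplitude 0.20, peak at ZT23.7) and DMS (0.15, peak at ZT23.5). Of 20 partners of Homer and Arc, 0 were rhythmic in NAc, 6 in DMS and 4 in DLS.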

How the data were processed

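Total RNA of bilateral punches was made into stranded libraries and sequenced in pairs, per the labels' protocols. The submitters' processing notes list HISAT2 2.1.0 and HTSeq 0.10.0, and the design text names the mouse build GRCm38, while the notes also list a human build. The deposited values are log2 of normalised counts, with 1 added in DMS and DLS. The NAc values include 9 below 0, and a median of 1.97% of them came out as whole reads (tolerance 0.01), so depth is unknown there; the step that made them so is not given in the sources used here.

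Within each region, limma 3.58.1 in R 4.3.3 fitted log2 values of all genes with a trended spread, a cosine and sine of 24 h or 6 levels of time, sex and, in DMS, the rRNA class, with Benjamini-Hochberg adjustment over all genes and a threshold of 0.05. Every animal is a separate replicate within a region. A count at an unadjusted p under 0.05 stands without the share of all genes at that p where this share was not counted. The scripts were tested on simulated data. Correlations used scipy 1.17.1 and figures matplotlib 3.10.9. The regions were compared in a joint fit. Libraries of the same animal had a median correlation of deviations of 0.08 between DMS and NAc, 0.04 between DLS and NAc and 0.12 between DLS and DMS, and the animal entered that fit as a replicate block in an alternative.

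The members and lists were chosen with earlier results of these data known. Named genes were the 9 members, the 10 genes most like their mean, and up to 6 genes per other list that were rhythmic in the most regions, then by amplitude. Alternatives left out the class term, changed the scaling, pseudocount, filter or test, used 1 sex or 1 class, or left out each library in turn.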

Additional observations from a re-analysis of the deposited data

How the results depend on the processing

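In DMS, the 24 h rhythm passed for 4 of 8 genes in males alone (9.73% of all genes), 5 in females alone (10.5%), 4 in the high class (15%) and 3 in the low class (7.83%), dark minus light for 1 in the high class and 3 in the low class, ZT14 minus ZT10 for 0 in the low class, and the departure from the cosine for 1 without the class term. Without that term 14 of 25 induction pathway genes and 7 of 9 cofactors were rhythmic, as were 6207 genes in all against 3051. In NAc the rhythm passed for 1 of 9 with the mitochondrial share as a covariate, and for 0 to 1 when each library was left out in turn. In DLS, with equal sums outside the 3 most abundant genes, the rhythm passed for 0 of 9, dark minus light for 0 (2 without the male number 13), ZT14 minus ZT10 for 4, the 6 levels for 4 and the departure for 0; the rhythm passed for 1 with voom on recovered reads (2.12% of all genes) and 1 in males alone (6.41%), against 21% of all genes in the full fit. That scaling moved the median male minus female difference of all genes to -0.1015. Leaving out each DLS library gave 1 to 3 rhythmic genes and 2 to 6 for dark minus light. Directions turned, with no adjusted p under the threshold, for Egr3 in ZT14 minus ZT10 in the DMS low class (0.0429), and in DMS without the class term for Nr4a3 in ZT2 minus ZT22 (-0.0689), Egr1 (0.0103) and Nr4a3 (0.0196) in male minus female level, the male minus female amplitude of Egr1 (-0.11), Egr2 (-0.21), Egr4 (-0.26), Nr4a1 (-0.0326), Nr4a3 (-0.0263) and Arc (-0.16), and the DLS minus DMS amplitude of Homer1 (0.0042). The phase of Nr4a2 in DLS turned in males alone (amplitude 0.62). At ZT18 against ZT14 and ZT22 in DMS, Egr1 turned to -0.0314 with the animal-number range and -0.14 without the class term, and Egr2 to -0.0896 and -0.36. The cause of these changes was not tested. Male and female animals of a region that share a number had a median correlation of -0.13 in NAc, -0.17 in DMS and 0.05 in DLS. Over 0.1 were 7 of 26 such pairs in NAc, 0 of 25 in DMS and 7 of 24 in DLS. Libraries of the same animal also had low medians (0.04 to 0.12), so this measure cannot decide whether the number pairs animals. With the number as a replicate block, the count of genes was the same as without it for the rhythm (0 in NAc, 8 in DMS and 3 in DLS) and for ZT14 minus ZT10 (0, 6 and 7), and was 3 against 4 for dark minus light in DLS. With the animal as a replicate block, no call changed in the region comparisons. Depth limits Nr4a2 most, whose lowest DLS library had 1 read.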

Other observations

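Markers of other cell types of the punch were described on the same tests, in which 2.56% of all genes were rhythmic in NAc, 25.2% in DMS and 21% in DLS. Of 10 markers of endothelial and mural cells, all listed in each region, 3 were rhythmic in NAc, 5 in DMS and 6 in DLS. Cldn5, a tight junction protein of the blood-brain barrier, passed in all 3 regions with a mean amplitude of 0.39. Of 10 astrocyte markers, 2 were rhythmic in each region, among them the gap junction gene Gjb6 with a mean amplitude of 0.26. Of 10 oligodendrocyte markers, 1 was rhythmic in NAc, 5 in DMS and 2 in DLS, and the myelin gene Opalin passed in all 3 with a mean amplitude of 0.35. Of 10 microglial markers, 0 were rhythmic in NAc, 1 in DMS and 1 in DLS. Of the interneuron markers, 0 of 9 listed in NAc, 0 of 7 in DMS and 2 of 7 in DLS were rhythmic.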
